A study of Mus musculus with 15 samples.

Results

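In the left ventricle of mice with chronic kidney disease, 5 genes that mark macrophages resident in the heart and 5 that mark monocytes and the macrophages they give rise to were followed. The resident markers were Timd4, Lyve1, Folr2, Cd163 and Mrc1, and the monocyte-derived markers were Ccr2, Ly6c2, Plac8, Chil3 and Cx3cr1. These 10 genes, chosen by name and found by mouse Ensembl identifier, are 10 of 55487 genes in each table. RNA from the left ventricular free wall was sequenced from 7 male Col4a5 mutant mice and 8 male wild-type littermates, all 225 days old. The mutants had reached a stage the submitters equate with advanced human kidney disease. The labels name the mutation a knockdown in one field and a knockout in another, and give no promoter or Cre. They call the animals biological replicates and name both isoflurane and ketamine/xylazine as the anaesthetic. Col4a5, which encodes a type IV collagen chain of the glomerular basement membrane, had 522 to 1111 counts in kidney disease libraries and 2442 to 3620 in wild-type libraries.

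Macrophages seeded before birth renew themselves in the heart and take up dying cells, haemoglobin and matrix fragments. Circulating monocytes enter through the receptor Ccr2, and in injured hearts they become a second macrophage population. The markers separate these populations best in sorted cells. In whole tissue a higher level can come from more cells of a type or from more of the RNA per cell, and these cannot be told apart. Cx3cr1 is also found on patrolling monocytes and on some resident macrophages, and Lyve1 and Mrc1 are also found on lymphatic endothelium.

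Library totals were 54263014 to 65519279 counts in kidney disease hearts, against 48748379 to 57962094 in wild-type hearts. The 8 cardiomyocyte genes, among them Myh6 and Tnnt2, summed to 66441 to 74588 CPM in kidney disease hearts, against 66927 to 88813 CPM in wild-type hearts, the highest of the lists. CPM is a count per library total, and the values here are scaled with TMM factors, which correct for a few genes taking a varying share of the counts. Titin led 3 kidney disease and 2 wild-type libraries, and mt-Co1 led the other 4 and 6. Kidney disease 6 stood apart in Ly6c2 and in its near copy Ly6c1. The same animal was also the highest of all for Timd4, Folr2, Mrc1, Plac8 and Cx3cr1, and not for Lyve1, Cd163, Ccr2 or Chil3.

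Ly6c2 and Ly6c1 are shown first because they cannot be read as separate genes with ease. Both encode Ly6C, a small surface protein anchored in the membrane. Ly6c2 (ENSMUSG00000022584) lies on chromosome 15 at 75108158 to 75111970 on the minus strand of GRCm38, and Ly6c1 at 75044018 to 75048830 on the same strand. Their coding sequences in GENCODE M21 have 396 bases each and differ at 9. The first 300 bases of each are given, with the 7 differing bases among them in capitals.
Ly6c2: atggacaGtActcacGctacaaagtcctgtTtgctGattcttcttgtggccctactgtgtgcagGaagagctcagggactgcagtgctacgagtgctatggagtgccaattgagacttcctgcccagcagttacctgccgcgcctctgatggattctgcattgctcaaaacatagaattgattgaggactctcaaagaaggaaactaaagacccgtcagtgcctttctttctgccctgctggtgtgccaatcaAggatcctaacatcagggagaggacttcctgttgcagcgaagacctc
Ly6c1: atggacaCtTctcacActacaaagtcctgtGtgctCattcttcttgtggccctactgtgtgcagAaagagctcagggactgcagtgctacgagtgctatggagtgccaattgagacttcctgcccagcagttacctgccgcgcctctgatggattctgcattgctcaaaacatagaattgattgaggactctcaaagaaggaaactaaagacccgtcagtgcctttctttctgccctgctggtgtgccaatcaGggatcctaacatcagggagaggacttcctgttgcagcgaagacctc
Of the 50-base windows of the spliced Ly6c2 transcript, 32.6% also occur in Ly6c1 transcripts. Ly6c1 is a gene of blood endothelium.

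The group mean of every tested marker of both classes was higher in kidney disease, and 1 of the 10 genes passed the test. Mrc1 rose by 0.35 on the log2 scale (1.27-fold). It was 1 of 9 members with enough counts to test, and of all 20718 tested genes 0.811% rose and 0.473% fell, or 1.28% in either direction (edgeR quasi-likelihood test, adjusted p under 0.05). No member fell. All 9 tested members had a positive log2 change, beside 51.2% of all tested genes. Before adjustment for the number of genes, the 95% interval of 8 of them lay above 0. The share of all tested genes with such an interval was not computed. For scale, an unadjusted p of 0.0505 stood at rank 2581 of all 20718 tested genes, counting both directions (edgeR). The median log2 change was 0.39 for the 5 resident markers (0.35 to 0.42) and 0.50 for the 4 tested monocyte-derived markers (0.28 to 1.37), beside a median of 0.00 over all tested genes. With DESeq2 in place of edgeR, 5 members passed: Mrc1, Lyve1, Timd4, Plac8 and Cx3cr1. DESeq2 also called more genes over the whole table, 379 higher, against 168 with edgeR, and 640 in either direction, against 266.

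**Figure D1:**
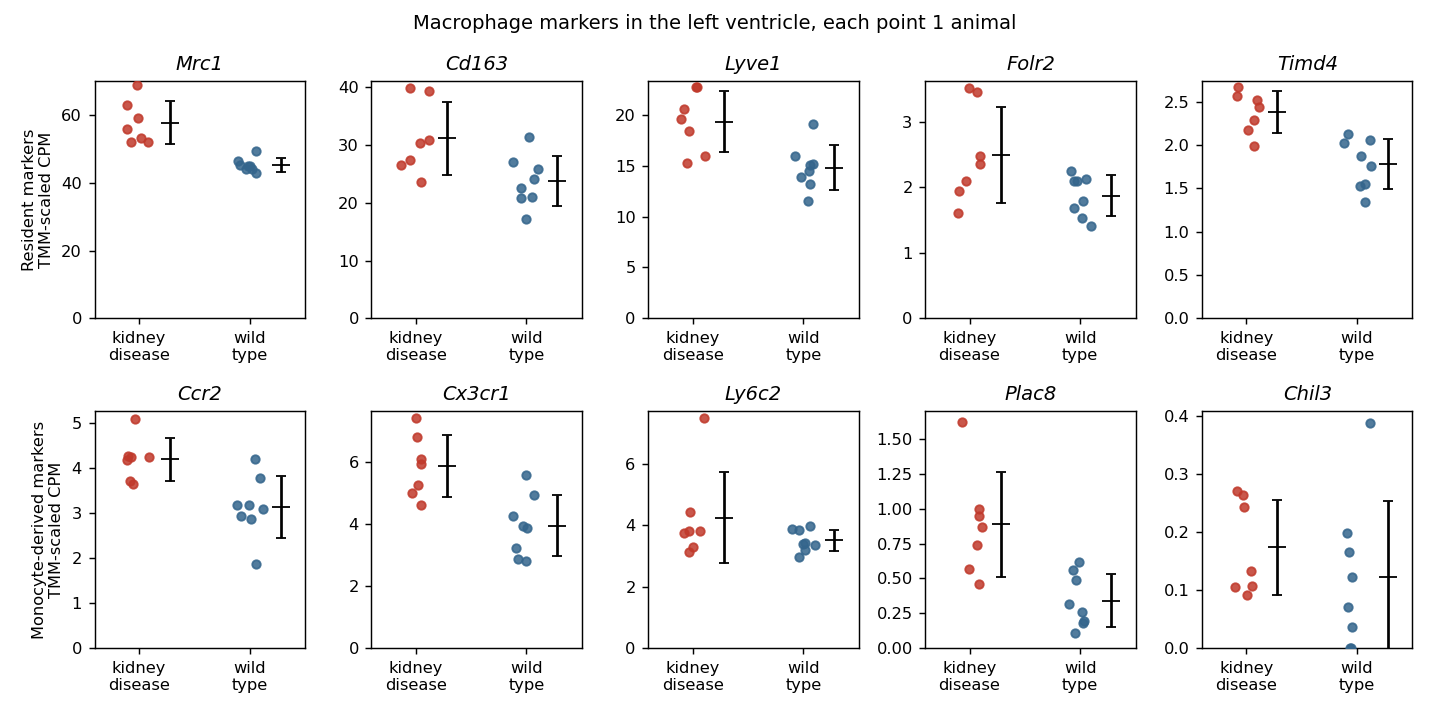
TMM-scaled CPM of each marker (vertical axes, linear from 0) in 7 kidney disease and 8 wild-type animals. Each point is 1 animal and the bar beside it is the mean with its SD, which runs below 0 for Chil3 in wild type. Only for Mrc1 do all 7 kidney disease animals lie above all 8 wild-type animals, and 1 kidney disease animal lies far above the rest for Ly6c2.

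Among the scavenger receptors of resident macrophages, Mrc1 had the clearest difference. Mrc1 encodes the mannose receptor, which takes up glycoproteins and collagen fragments (ENSMUSG00000026712, chromosome 2, 14229392 to 14332057, plus strand). It ran from 52.0 to 68.8 CPM (median 55.9) in kidney disease hearts, against 42.9 to 49.6 CPM (median 45.0) in wild-type hearts. The groups did not overlap, as in 0.386% of tested genes with kidney disease above. Its log2 change was 0.35 (SE 0.06, adjusted p = 0.0094; 57.8 ± 6.31 CPM, n = 7, against 45.3 ± 2.02 CPM, n = 8, SD, edgeR). The call held with each library left out in turn, and it did not hold within the 10 libraries led by mt-Co1 (0.38, adjusted p = 0.066) or the 5 led by Ttn (0.32, adjusted p = 0.35).

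The promoter of Mrc1 is shown because Mrc1 is the member that rose. It is the stretch before the start site in RefSeq, chr2:14229164-14229413 (GRCm38.p6, plus strand, 250 bases). Capitals mark matches on either strand to GAGGAA, the core letters of the site of PU.1, a transcription factor of all macrophages.
Mrc1: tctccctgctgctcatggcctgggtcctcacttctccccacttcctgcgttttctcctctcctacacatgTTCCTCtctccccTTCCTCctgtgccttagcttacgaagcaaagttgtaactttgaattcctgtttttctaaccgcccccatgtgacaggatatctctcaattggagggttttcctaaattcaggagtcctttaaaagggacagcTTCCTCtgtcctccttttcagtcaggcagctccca
It holds 3 matches, all on the minus strand and none overlapping. At least 1 match occurs in 23.3% of 32851 promoters of that length and 3 or more in 0.429%. Promoters were listed for 9 members with 12 start sites, and 3 members (Mrc1, Ly6c2 and Plac8) held a match, at 4 of the 12 start sites. TGCTGA, a half-site of MAF factors, occurred in 3 other members (Timd4, Folr2 and Chil3), also at 4 start sites. It occurred in 16.1% of all promoters.

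Cd163 encodes the receptor for haptoglobin bound to haemoglobin (ENSMUSG00000008845, chromosome 6, 124304656 to 124330527, plus strand). Its level was 23.6 to 40.0 CPM (median 30.3) in kidney disease hearts, against 17.3 to 31.4 CPM (median 23.4) in wild-type hearts. Only kidney disease 1 and 2 exceeded the highest wild-type animal, and the log2 change of 0.39 (SE 0.12) did not pass (adjusted p = 0.15, edgeR). Haemoglobin and other red cell transcripts had a median log2 change of -0.68, with 0 of 9 erythroid genes past the threshold and summed levels of 329 to 844 CPM in kidney disease hearts, against 579 to 1105 CPM in wild-type hearts. Hmox1, which encodes the enzyme that breaks down haem, had a log2 change of 0.34 (adjusted p = 0.28, edgeR).

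Lyve1 encodes a hyaluronan receptor (ENSMUSG00000030787, chromosome 7, 110850607 to 110863239, minus strand). It was 15.3 to 22.8 CPM (median 19.6) in kidney disease hearts, against 11.5 to 19.1 CPM (median 14.8) in wild-type hearts. All 7 kidney disease animals lay above the wild-type mean and 4 above the highest wild-type animal. The log2 change of 0.39 (SE 0.10) did not pass (adjusted p = 0.069, edgeR). Of 15 fits with 1 library left out it passed in 2, without kidney disease 7 or without wild type 4 (adjusted p = 0.047 and 0.040). In the others the adjusted p ran up to 0.15. Of 9 tested lymphatic endothelial genes none passed, with a median of -0.12. Their summed level was 251 to 331 CPM in kidney disease hearts, against 295 to 369 CPM in wild-type hearts, and Prox1, which cardiomyocytes may also express, had the highest level among them. Of the 9, 4 had a positive and 5 a negative log2 change. Fgl2 was at 0.27 (adjusted p = 0.24), Flt4, the receptor of lymphatic growth factors, at -0.23 (adjusted p = 0.27), Reln at -0.40 (adjusted p = 0.32) and Mmrn1 at -0.38 (adjusted p = 0.38). The lymphatic gene Ccl21a had too few counts to test.

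Timd4 and Folr2 were the lowest of the resident markers. Timd4 encodes a receptor for phosphatidylserine on dying cells (ENSMUSG00000055546, chromosome 11, 46810800 to 46844332, plus strand). It was 1.99 to 2.67 CPM (median 2.44) in kidney disease hearts, against 1.35 to 2.13 CPM (median 1.81) in wild-type hearts. Kidney disease 2 alone fell within the wild-type range. The log2 change was 0.42 (SE 0.13, adjusted p = 0.12, edgeR). Folr2 encodes folate receptor beta (ENSMUSG00000032725, chromosome 7, 101839988 to 101857194, minus strand). It was 1.60 to 3.52 CPM (median 2.36) in kidney disease hearts, against 1.40 to 2.25 CPM (median 1.94) in wild-type hearts. The ranges overlapped, with kidney disease 1 and 6 on top, and there was a log2 change of 0.41 (SE 0.17, adjusted p = 0.31, edgeR). Folr2 shares exon bases with the antisense gene Gm10602, which holds 52.6% of its 50-base windows. No source used here says whether counting used strand, so reads of the pair cannot be told apart. Gm10602 itself had 80 to 102 counts in kidney disease hearts, against 50 to 87 in wild-type hearts. Scaled, it was 1.34 to 1.74 CPM in kidney disease hearts, against 0.908 to 1.78 CPM in wild-type hearts, with wild type 1 the highest.

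Of the chemokine receptors of monocytes, neither passed. Ccr2 (ENSMUSG00000049103, chromosome 9, 124101950 to 124113557, plus strand) binds Ccl2 and its relatives and brings monocytes out of the marrow. It was 3.65 to 5.10 CPM (median 4.24) in kidney disease hearts, against 1.87 to 4.20 CPM (median 3.13) in wild-type hearts. Kidney disease 1 was the highest and wild type 4 the lowest of all animals. The log2 change was 0.42 (SE 0.13, adjusted p = 0.15, edgeR). Cx3cr1 (ENSMUSG00000052336, chromosome 9, 119901616 to 120069879, minus strand) is the receptor for fractalkine, a chemokine displayed on endothelium. It was 4.63 to 7.42 CPM (median 5.95) in kidney disease hearts, against 2.81 to 5.60 CPM (median 3.92) in wild-type hearts. All 7 kidney disease animals lay above the wild-type mean. Its log2 change of 0.57 (SE 0.15) did not pass (adjusted p = 0.058, edgeR). Of 15 fits with 1 library left out it passed in 1, without wild type 2 (0.66, adjusted p = 0.025). In the others the adjusted p ran up to 0.12.

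Plac8 had the largest change among the 9 tested members and very few counts. Plac8 encodes a small cysteine-rich protein of monocytes, neutrophils and some lymphocytes (ENSMUSG00000029322, chromosome 5, 100553725 to 100572245, minus strand). It had 26 to 100 counts in kidney disease hearts, against 6 to 31 in wild-type hearts. Scaled, it was 0.461 to 1.62 CPM (median 0.869) in kidney disease hearts, against 0.109 to 0.620 CPM (median 0.288) in wild-type hearts. Kidney disease 2 and 7 lay within the wild-type range, and kidney disease 6 was the highest. The log2 change was 1.37 (SE 0.34, 95% interval 0.66 to 2.08) with adjusted p = 0.0504 (edgeR). It passed when kidney disease animal 2 or wild-type animal 2 or 8 was left out (adjusted p = 0.048, 0.043 and 0.037), and its log2 change was 1.16 (adjusted p = 0.11) without kidney disease 6.

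B cells can also express Plac8. Of 8 tested B cell genes 3 rose and none fell, among them Ms4a1 (1.39, SE 0.31, adjusted p = 0.036) and Cd79a (1.09, SE 0.25, adjusted p = 0.036, edgeR). No gene of the list was at 0 in all libraries. The whole list summed to 35.6 to 52.1 CPM in kidney disease hearts, against 32.1 to 45.7 CPM in wild-type hearts, most of it from Ebf1 and Blk. With 1 library left out, Ms4a1 passed only when kidney disease animal 1 or wild-type animal 5, 7 or 8 was left out, and Cd79a only when kidney disease animal 1 or 7 or wild-type animal 2, 7 or 8 was. Of 10 neutrophil genes 6 could be tested and none passed (median 0.46), with S100a9 at 0.80 (adjusted p = 0.36). Their summed level was 6.09 to 17.3 CPM in kidney disease hearts, against 6.67 to 16.8 CPM in wild-type hearts. The part of B cells or neutrophils in the Plac8 difference was not tested.

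Ly6c2 counts were a small fraction of Ly6c1 counts in every library, 5.42% to 7.59%. Ly6c2 was 3.14 to 7.47 CPM (median 3.82) in kidney disease hearts, against 2.97 to 3.97 CPM (median 3.42) in wild-type hearts. Kidney disease 6 held the top value, and the next animal had 4.43 CPM. Ly6c1 was 52.4 to 113 CPM (median 60.6) in kidney disease hearts, against 42.4 to 59.0 CPM (median 54.0) in wild-type hearts, with the same animal on top. Counts of Ly6c2 were 5.42% to 6.83% of those of Ly6c1 in kidney disease hearts, against 6.13% to 7.59% in wild-type hearts. The log2 change of Ly6c2 was 0.28 (SE 0.15, 95% interval -0.05 to 0.60, adjusted p = 0.51), and it was 0.08 (SE 0.10, adjusted p = 0.88, edgeR) without kidney disease 6. For Ly6c1 the values were 0.37 (adjusted p = 0.20) and 0.20 (adjusted p = 0.31). The 10 blood endothelial genes, Ly6c1 among them, had a median log2 change of 0.14, with none called, and summed to 1371 to 1602 CPM in kidney disease hearts, against 1163 to 1455 CPM in wild-type hearts. How many Ly6c2 counts came from endothelial Ly6c1 was not tested.

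Chil3 was close to the limit of detection. It encodes Ym1, a chitinase-like secreted protein (ENSMUSG00000040809, chromosome 3, 106147554 to 106167564, minus strand). It had 6 to 19 counts in kidney disease hearts, against 0 to 18 in wild-type hearts, too few to test. Wild type 4 and 6 had none, which allows up to 3 counts, and kidney disease 4 had the most counts of any library. The coding sequence of Chil3 is 94.4% identical to that of Chil4, which had 0 or 1 count in each library.

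**Figure D2:**
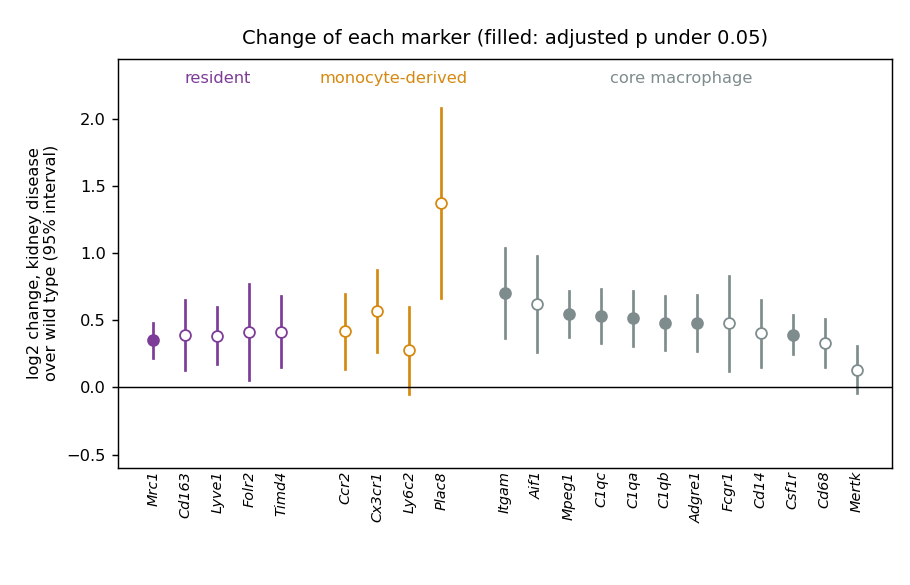
Log2 change, kidney disease over wild type (vertical axis, with 95% interval), of the 5 resident markers, the 4 tested monocyte-derived markers and 12 core macrophage genes. Filled points passed at an adjusted p of 0.05. Mrc1 is the 1 filled point among the markers of either class, and 7 core macrophage genes are filled.

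Per length of transcript, 3 resident markers, Mrc1, Lyve1 and Cd163, had the highest levels of the 10. In the authors' deposited FPKM values, which divide CPM by exon length, Mrc1 had 9.28 ± 0.920 in kidney disease and 6.97 ± 0.421 in wild type (SD, n = 7 and 8). Lyve1 had 6.77 ± 0.959 and 4.97 ± 0.782 FPKM in these groups, and Cd163 had 5.82 ± 1.05 and 4.27 ± 0.856 FPKM. The ranges of Lyve1 and Cd163 overlapped in both groups, while those of Mrc1 and Lyve1 did not. Folr2 had 1.64 FPKM in kidney disease and 1.19 in wild type, Ly6c2 had 1.58 and 1.25, Cx3cr1 had 1.34 and 0.864, and Timd4 had 1.12 and 0.800. Neighbours in the order of levels among these 4 overlapped in both groups, and all 4 lay below Cd163. Ccr2 had 0.635 FPKM in kidney disease and 0.457 in wild type, Plac8 had 0.569 and 0.211, and Chil3 had 0.109 and 0.0724. In kidney disease the ranges of Timd4 and Ccr2, and those of Plac8 and Chil3, did not overlap, while in wild type both pairs did. In the order of the 10 members Ly6c2 ranked below Folr2 in kidney disease and above it in wild type, within their spread.

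Both classes had higher scores in kidney disease, while their balance within an animal overlapped between the groups. The 4 monocyte-derived markers other than Chil3 had a mean log2 CPM of 1.33 to 2.16 in kidney disease hearts, against 0.40 to 1.32 in wild-type hearts. The 5 resident markers had 3.35 to 3.74 in kidney disease hearts, against 2.93 to 3.24 in wild-type hearts. Neither range overlapped between the groups. With Chil3 included, the monocyte-derived score was 0.50 to 1.36 in kidney disease hearts, against -0.64 to 0.57 in wild-type hearts, and the groups overlapped. The group difference was 0.38 for the resident score, and for the monocyte-derived score it was 0.67 with Chil3 and 0.65 without it. No test was made on these scores, because the genes were chosen with results known. The resident minus the monocyte-derived score, with Chil3, was 2.36 to 3.02 (median 2.77) in kidney disease hearts, against 2.60 to 3.86 (median 2.84) in wild-type hearts. The difference of the means, -0.29, was negative in every setting run (-0.41 to -0.17). The groups overlapped, with 2 wild-type animals above every kidney disease animal. Each setting kept Plac8 and Chil3, the members with the fewest counts, and the balance without Plac8 was not computed. Plac8 had a log2 change of 1.37, against 0.28 to 0.57 for Ccr2, Ly6c2 and Cx3cr1 (edgeR). The monocyte-derived markers made up 10.4% to 14.5% (median 11.2%) of the summed CPM of the 10 genes in kidney disease hearts, against 8.14% to 12.9% (median 11.7%) in wild-type hearts. The log2 ratio of Mrc1 to Ccr2, a single value per animal, was 3.77 ± 0.17 in kidney disease hearts (SD, n = 7). In wild-type hearts it was 3.87 ± 0.32 (SD, n = 8, two-sided exact permutation p = 0.53 over 6435 splits). This pair was drawn from the same members, chosen with results known, and Mrc1 is the member that was called. The p of this 1 pair therefore cannot decide whether the balance of the classes changed.

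**Figure D3:**
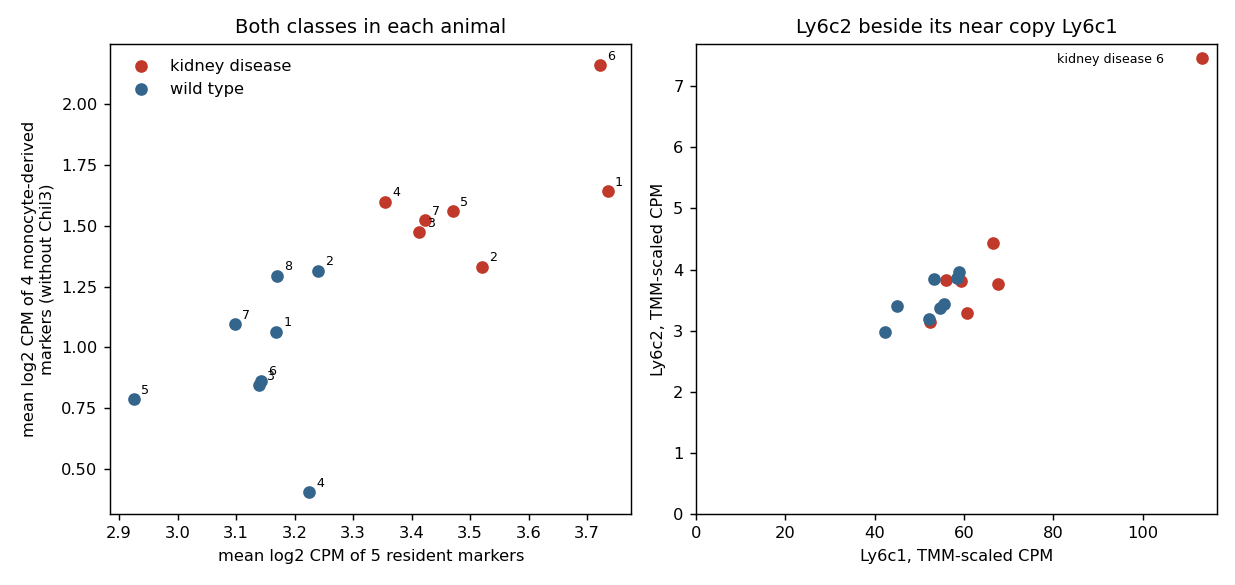
Left, mean log2 CPM of the 5 resident markers (horizontal) and of 4 monocyte-derived markers (vertical) in each animal, numbered by replicate; the 7 kidney disease animals lie above the 8 wild-type animals on both axes. Right, Ly6c2 against Ly6c1 in CPM on axes from 0; kidney disease 6, at 113 CPM of Ly6c1 and 7.47 CPM of Ly6c2, is apart from the other animals on both genes.

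A list of core macrophage genes was higher too, in part. Of its 12 genes, 7 rose and none fell, with a median log2 change of 0.48. All 12 had positive values, the lowest 0.13 for Mertk (adjusted p = 0.58, edgeR). The 7 included the microbicidal protein gene Mpeg1 (0.55), the growth factor receptor gene Csf1r (0.39) and the complement genes C1qc (0.53) and C1qa (0.51). These 4 and C1qb passed with any 1 library left out, Adgre1 did not when kidney disease animal 1 or wild-type animal 4, 5 or 6 was left out, and Itgam passed only when kidney disease animal 2 or 4 or wild-type animal 2, 7 or 8 was. Set against the mean of these 12 genes in each library, the difference between groups was -0.04 for Timd4, -0.07 for Lyve1, -0.09 for Folr2, -0.07 for Cd163 and -0.11 for Mrc1. It was -0.02 for Ccr2, 0.13 for Cx3cr1, -0.24 for Ly6c2, 0.90 for Plac8 and 0.30 for Chil3. For every member the groups overlapped on this scale. With the core mean as a covariate in the fit, no member passed, and the change of Mrc1 was 0.04 on the log2 scale (SE 0.09, adjusted p = 0.89, edgeR). Over all tested genes that fit called 0 genes higher and 1 lower, and the core mean itself did not overlap between groups (3.42 to 3.93 in kidney disease hearts, against 3.02 to 3.28 in wild-type hearts).

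**Figure D4:**
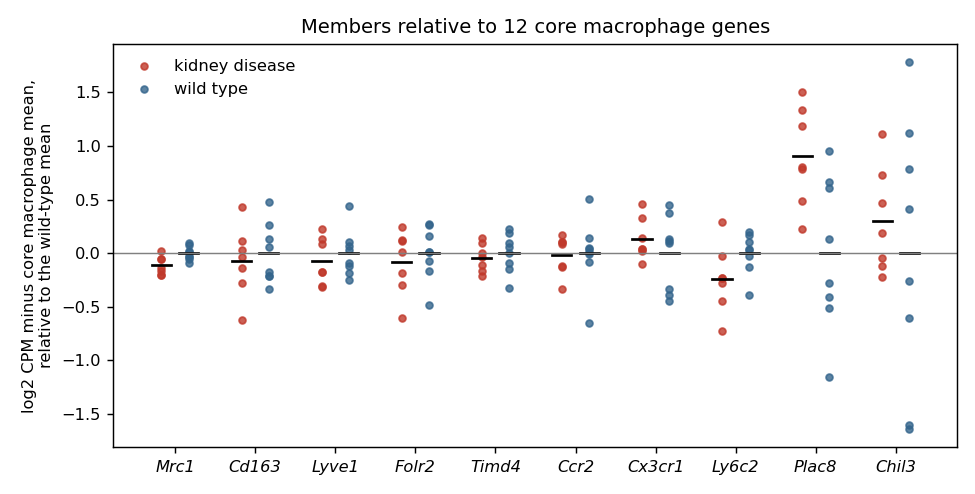
Log2 CPM of each marker minus the mean of 12 core macrophage genes in the same animal, with the wild-type mean of each marker set to 0 (vertical axis). Points are animals and black lines are group means. Plac8 has the largest difference between group means, 0.90, and both groups of every marker overlap.

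Other genes of the resident program rose in part. Of 16 tested, 3 rose and none fell, with a median of 0.23. They were the transglutaminase gene F13a1 (0.42, SE 0.08, adjusted p = 0.012), the platelet factor gene Pf4 (0.64, SE 0.11, adjusted p = 0.0077) and the transcription factor gene Maf (0.30, SE 0.07, adjusted p = 0.037, edgeR). F13a1 and Pf4 passed with any 1 library left out, and Maf only when kidney disease animal 5 or 6 or wild-type animal 2 or 7 was left out. F13a1 is also found in classical monocytes. Vsig4, a complement receptor gene, had 0.76 (SE 0.22, adjusted p = 0.095). The lectin genes Cd209d, Cd209f and Cd209g and the chemokine gene Ccl24 had -0.12, 0.19, 0.30 and 0.00, and none passed.

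Other monocyte genes had a higher median, 0.51, with 2 of 14 tested genes higher and none lower. Spn, which encodes CD43, rose by 0.79 (SE 0.18, adjusted p = 0.036, edgeR). Spn is also expressed by lymphocytes, and with 1 library left out it passed only when kidney disease animal 2 or wild-type animal 2, 7 or 8 was left out. Genes of patrolling monocytes were Adgre4, at 1.00 on the log2 scale (SE 0.26, adjusted p = 0.064), and Treml4, at 1.19 (adjusted p = 0.13). Nr4a1 and Ace, of the same cells and also of others, were at 0.30 (adjusted p = 0.85) and 0.12 (adjusted p = 0.41). Of the 14 genes 12 had a positive log2 change, and the other two were Hp (-0.52, adjusted p = 0.68) and F10 (-0.23, adjusted p = 0.87). Vcan, found in classical monocytes and fibroblasts, had 0.41 (adjusted p = 0.071). T and NK cell genes, of cells that can carry Cx3cr1 and Ccr2, had 6 of 10 members tested, none called and a median of 0.22. Their summed levels were 1.61 to 4.87 CPM in kidney disease hearts, against 1.98 to 3.44 CPM in wild-type hearts. The part of these other cells was not tested.

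A list of 7 genes of ligands for the receptors and for Csf1r, the hyaluronan synthase genes Has1 and Has2, and Hmox1 held 10 tested genes, of which 1 rose. Ccl8, a chemokine gene, had 0.958 to 3.10 CPM (median 1.99) in kidney disease hearts, against 0.296 to 1.38 CPM (median 0.728) in wild-type hearts. It rose by 1.27 (SE 0.29, adjusted p = 0.036, edgeR), and with 1 library left out it passed only when kidney disease animal 2 or 5 or wild-type animal 1, 2 or 7 was left out. The Ccr2 ligand genes Ccl2 (0.35, adjusted p = 0.70), Ccl7 (0.42, adjusted p = 0.54) and Ccl12 (0.89, adjusted p = 0.20) did not pass. Cx3cl1, which encodes fractalkine, had a log2 change of -0.02 (95% interval -0.19 to 0.16) and Csf1, which encodes the macrophage growth factor, one of 0.07 (-0.09 to 0.23).

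With group means removed, pairs within a class were no more alike in median than pairs across the classes. Of the monocyte-derived markers only Ccr2, Ly6c2 and Cx3cr1 had enough counts to be compared, and no test was made. Over the 15 libraries, Pearson's r between members with a mean of at least 1 CPM had a median of 0.04 over 10 pairs of resident markers, 0.11 over 3 pairs of monocyte-derived markers and 0.27 over 15 pairs across the classes. The highest was 0.57, for Folr2 and Mrc1, and the lowest -0.41, for Timd4 and Cd163. Among 14584 genes, those most like Mrc1 were Adgre1 (r = 0.88), which encodes the macrophage antigen F4/80, F13a1 (0.85) and Robo2 (0.80). Those most like Folr2 were the macrophage gene Aif1 (0.87), Gm3055 (0.81) and the protease gene Ctss (0.81). Cd163 was most like Fam117b (0.93), Acer2 (0.88) and Hif3a (0.88), and Lyve1 most like Scpep1 (0.85), Tmem200b (0.84) and Jdp2 (0.82). Ly6c2 was most like Rras (0.93), Ly6c1 (0.91) and Ptrh2 (0.89). For Ccr2 they were Nup160 (0.91), Gsap (0.85) and Eif2ak2 (0.83), for Cx3cr1 Nhs (0.84), Mapk8ip1 (0.83) and Lbx2 (0.83), and for Timd4 Pheta1 (0.86), Psenen (0.84) and Gm5112 (0.84). These values describe libraries that share depth and tissue composition, and the 3 highest of 14584 values are given for each member.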

How the data were processed

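RNA of 7 kidney disease and 8 wild-type left ventricles was sequenced after ribosomal RNA removal, per the labels' protocols. The authors deposited for each library a raw count, a CPM value (count over library total) and an FPKM value (CPM per kilobase of exon) for 55487 genes. Per the submitters' processing notes reads went through bcl2fastq, alignment with STAR 2.7.9a and counting with featureCounts 2.0.3 of Subread, on GRCm38; no source used here gives the counting options. GENCODE M21 (GRCm38) gave symbols and positions, and it held 55227 of the identifiers; promoters came from RefSeq (GRCm38.p6).

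Genes were kept with filterByExpr (minimum count 10), which left 20718, given TMM factors, and fitted by the quasi-likelihood method of edgeR 4.0.16 under R 4.3.3 with group as the only term. P-values were Benjamini-Hochberg adjusted over all tested genes, with a threshold of 0.05. The prior count of log2 CPM was 2. DESeq2 1.42.0 and limma 3.58.1 served alternatives, which also covered scaling, filters, depth, a replicate block, covariates and left-out libraries. The pipeline was tested on simulated counts.

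The members and the 13 other lists were chosen with earlier results of these data known. Named beside the members are up to 4 genes of each list with the smallest p, the 3 genes most like each member, Ly6c1, Chil4 and Col4a5. Genes outside that rule, chosen after their values were seen, are Ccl2, Cx3cl1, Csf1, Treml4, Nr4a1, Ace, Hp, F10, Has1, Has2, the Cd209 genes, Ccl24, Gm10602, C1qb, Adgre1, Itgam, Prox1, Ccl21a, Ebf1, Blk and Tnnt2. Mertk and both promoter motifs were chosen then too. The limit given for a count of 0 covers counting error only. No library pair held identical counts. Some genes of these lists are counted but not reported here by name.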

Additional observations from a re-analysis of the deposited data

Results flagged for a closer look

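The values of Ccr2 and Ly6c2 each lay apart from the rest of the group in 1 animal, in a search of 20 groups of values, where chance picks out about 1 in 20. Kidney disease 1 had the highest Ccr2 of its group, 5.10 CPM. Kidney disease 6 had the highest Ly6c2, 7.47 CPM, together with the highest Ly6c1 of all libraries.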

How the results depend on the processing

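With 1 library left out, 1 to 3 members were called higher and 0 lower. Over all tested genes, counts of calls in both directions together were 97 to 388 with 1 library left out, against 266 with all, the fewest without wild type 5 and the most without wild type 7. Members called higher numbered 2 with upper-quartile scaling or limma-voom, 4 without a filter on low counts, 4 with the leading gene of the library as a covariate and 5 with DESeq2. They numbered 0 within the libraries led by mt-Co1, within those led by Ttn and with the core macrophage mean as a covariate. Genes called in either direction numbered 640 with DESeq2, 523 with the leading gene as a covariate, 86 within libraries led by mt-Co1, 3 within those led by Ttn and 1 with the core mean as a covariate. Genes called lower numbered 65 without a filter and 154 with at least 1 CPM in 7 libraries, beside 98. With the replicate number as a block, replicates 1 to 7 of both groups gave 116 genes, 66 higher and 50 lower, and 1 member, Mrc1. The numbers are not shown to pair the animals: same-numbered animals had correlations of -0.20 to 0.42, over 0.1 in 2 of 7 pairs, and 2 of 7 kidney disease animals were closest to their own number. The log2 change reversed for Folr2 (-0.26) and Ly6c2 (-0.35) with the core mean as a covariate and for no other tested member in any setting run. The resident score differed by 0.35 to 0.41 and the monocyte-derived score by 0.56 to 0.79 over scalings, prior counts and left-out libraries. The causes of these shifts were not tested. Depth limits Plac8 and Chil3.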

Other observations

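Genes linked to lipid-laden macrophages, which are described mostly from obese and injured tissue, had a median log2 change of 0.24. Of 10 tested, 1 rose: Lgals3, which encodes galectin-3, had 5.78 to 8.61 CPM (median 6.44) in kidney disease hearts, against 2.57 to 5.53 CPM (median 4.42) in wild-type hearts, with a log2 change of 0.66 (SE 0.14, adjusted p = 0.023, edgeR), and it did not pass without kidney disease 3. Trem2, a lipid receptor gene of macrophages, had 1.60 to 2.25 CPM in kidney disease hearts, against 1.27 to 1.56 CPM in wild-type hearts with no overlap, and a log2 change of 0.45 (SE 0.12, adjusted p = 0.075).

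Of 10 tested genes of conventional dendritic cells, Ccr7 rose and none fell (median 0.21). Ccr7, the receptor that guides dendritic cells and lymphocytes to lymph nodes, had 27 to 82 counts in kidney disease hearts, against 3 to 27 in wild-type hearts, with a log2 change of 1.43 (SE 0.32, adjusted p = 0.034, edgeR). With 1 library left out it passed only when kidney disease animal 1, 2 or 7 or wild-type animal 2, 4, 7 or 8 was left out. Of the 10, 7 had a positive log2 change. Itgae was at 0.86 (adjusted p = 0.29), Flt3 at 0.71 (adjusted p = 0.40) and Zbtb46 at 0.15 (adjusted p = 0.40).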
